A study of Homo sapiens with 6 samples.

Results

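The 31 genes described here encode proteins of the skeletal muscle sarcomere, its calcium stores and its energy supply. They were fixed as a list of symbols, and all 31 were found among the 67026 genes of the count table by Ensembl identifier. They were measured by RNA sequencing in 6 xenograft tumours of the human prostate cancer line PC-3. All 6 grew from cells placed under the skin, in PBS and Matrigel, of male mice of the immunodeficient strain NOD.Cg-Prkdcscid Il2rgtm1Wjl/SzJ, called NSG, which lacks mature lymphocytes and keeps its own connective tissue, vessels and muscle. The mice were 4 to 5 weeks old, and the tumours were measured for 4 weeks. All PC-3 cells carried a lentiviral short hairpin RNA and had been selected with puromycin at 2 μg/mL. The hairpin was directed at GFP in the 3 control tumours (shGFP, labelled KD control) and at VCAN, the gene for the matrix proteoglycan versican, in the other 3 (shVCAN, labelled KD VCAN). The labels do not say whether the hairpin cells were clonal, how many hairpin sequences were used or whether tumours were pooled.

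In a muscle fibre, thick filaments of myosin slide along thin filaments of actin. Calcium released from the sarcoplasmic reticulum binds troponin C and frees the thin filament for the myosin heads, and pumps return the calcium to the store. Fast and slow fibres use different isoforms of myosin, troponin and the calcium pump. The labels give the tissue as a PC-3 xenograft and name no muscle.

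The working name for these genes was skeletal muscle transcripts, likely from host tissue. That origin was not tested, and the genes of muscle fibres were detected very unevenly. ACTA1 and the fast myosin heavy chains MYH1, MYH2 and MYH4 were detected in every tumour. Other genes that define fast fibres held almost no counts: MYL1 had 0 to 3 counts per tumour, TNNI2 0 to 3, MYLPF 2 to 9 and MYBPC2 0 to 5, while TNNT3 was listed at 0 in all 6. MB, the myoglobin gene, which is used most in slow and oxidative fibres, had 0 to 7. The myogenic regulators gave as little, with 3 to 9 counts for MYOD1, 0 to 2 for MYOG and 0 to 5 for MYF6, and MYF5 and PAX7 were listed at 0. A value of 0 in this table does not show absence, since POLR2A, LDHA and ACTN4, which nearly every cell uses, were also listed at 0 in all 6 tumours. ALDOA, a glycolytic enzyme, had only 31 to 50 counts. These 4 genes were singled out after their values had been seen, and the cause of their values was not tested. No source used here says whether mouse reads were removed, and the species and tissue that gave the reads of the 31 genes were not tested. They are therefore called the sarcomere and muscle genes below.

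The 3 fast myosin heavy chain genes lie next to each other on chromosome 17 (GRCh38): MYH4 at 10443290 to 10469559, MYH1 at 10492307 to 10518543 and MYH2 at 10521148 to 10549957. Their coding sequences were 91.0% identical between MYH1 and MYH2, 89.7% between MYH1 and MYH4 and 87.4% between MYH2 and MYH4. Where reads of 150 bases fall in the most alike stretch, they can fit more than 1 of the genes. That stretch is shown because the levels of the 3 genes depend on how such reads were assigned. It lies in exon 23 of 40 of the longest coding transcript in each gene, on the minus strand (MYH1 chr17:10503006-10503155, MYH2 chr17:10529832-10529981, MYH4 chr17:10453643-10453792). Capitals mark the 2 positions, of 150, at which the 3 genes are not all the same.
MYH1: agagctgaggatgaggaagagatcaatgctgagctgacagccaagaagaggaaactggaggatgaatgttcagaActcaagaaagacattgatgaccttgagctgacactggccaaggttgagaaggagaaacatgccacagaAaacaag
MYH2: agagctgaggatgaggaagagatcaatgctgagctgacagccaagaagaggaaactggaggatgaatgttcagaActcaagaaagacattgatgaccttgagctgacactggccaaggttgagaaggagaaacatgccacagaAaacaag
MYH4: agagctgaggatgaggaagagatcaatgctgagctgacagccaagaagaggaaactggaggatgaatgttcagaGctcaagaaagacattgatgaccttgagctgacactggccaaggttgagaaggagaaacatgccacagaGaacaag
MYH1 and MYH2 were the same throughout this stretch. Over whole transcripts, 7.44% of the distinct 100-base words of MYH1, 6.002% of those of MYH2 and 3.38% of those of MYH4 also occurred in another annotated gene. For MYH7 this share was 5.16%, all with MYH6. ACTA1, TNNT1, TNNC2 and NEB shared no such word with any other gene.

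Promoters of 21 of the 31 genes (29 windows, counting alternative starts) were found in RefSeq on GRCh38.p14, each from 250 bases before to 50 bases after the start. Those of ACTA1, of the 3 clustered myosins and of TNNT1 are shown because ACTA1 and the 3 myosins were lower in shVCAN tumours and TNNT1, close to ACTA1 in level, was not. Capitals mark matches on either strand to the E-box CANNTG, the TATA box TATAAA, the CArG box and the MEF2 site, which are the textbook sites of myogenic factors, TATA-binding protein, SRF and MEF2 proteins.
ACTA1 (chr1:229434045-229434344, minus strand): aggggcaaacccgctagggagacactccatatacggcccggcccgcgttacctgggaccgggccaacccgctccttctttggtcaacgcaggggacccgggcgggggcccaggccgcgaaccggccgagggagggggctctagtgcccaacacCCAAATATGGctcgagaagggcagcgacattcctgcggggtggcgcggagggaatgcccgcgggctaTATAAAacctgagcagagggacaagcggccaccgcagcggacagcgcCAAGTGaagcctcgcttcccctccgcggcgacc
MYH1 (chr17:10518493-10518792, minus strand): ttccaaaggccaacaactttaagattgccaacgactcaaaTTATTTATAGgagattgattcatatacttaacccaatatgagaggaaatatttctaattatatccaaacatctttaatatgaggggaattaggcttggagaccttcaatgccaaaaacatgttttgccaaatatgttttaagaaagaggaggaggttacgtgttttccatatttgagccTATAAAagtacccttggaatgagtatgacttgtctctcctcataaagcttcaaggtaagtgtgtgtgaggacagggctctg
MYH2 (chr17:10549609-10549908, minus strand): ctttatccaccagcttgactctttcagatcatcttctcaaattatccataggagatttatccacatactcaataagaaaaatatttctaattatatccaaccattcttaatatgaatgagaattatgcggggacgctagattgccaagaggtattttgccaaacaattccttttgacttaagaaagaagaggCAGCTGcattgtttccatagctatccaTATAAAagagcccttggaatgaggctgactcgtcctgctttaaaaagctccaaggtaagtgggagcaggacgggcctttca
MYH4 (chr17:10469510-10469809, minus strand): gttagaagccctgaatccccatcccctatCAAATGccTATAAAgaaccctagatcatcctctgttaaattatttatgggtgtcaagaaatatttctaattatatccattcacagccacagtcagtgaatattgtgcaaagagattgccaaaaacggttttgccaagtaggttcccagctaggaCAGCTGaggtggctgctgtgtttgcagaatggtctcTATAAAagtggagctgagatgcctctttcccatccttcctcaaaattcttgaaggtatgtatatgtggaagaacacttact
TNNT1 (chr19:55149157-55149456, minus strand): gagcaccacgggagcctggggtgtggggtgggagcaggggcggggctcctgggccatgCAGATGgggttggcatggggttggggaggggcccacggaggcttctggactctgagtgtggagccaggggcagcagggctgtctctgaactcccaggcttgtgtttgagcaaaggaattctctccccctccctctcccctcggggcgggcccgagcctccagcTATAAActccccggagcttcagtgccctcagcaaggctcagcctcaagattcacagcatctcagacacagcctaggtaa
ACTA1 held a CArG box, a TATA box and an E-box. All 3 myosin promoters had a TATA box just upstream of the start, MYH2 and MYH4 also held E-boxes, MYH4 held a second TATA box further upstream, and in MYH1 a MEF2 site overlapped a second TATA box on the other strand. TNNT1 held an E-box and a TATA box. The CArG box was found in 10.3% of the 29 windows (3 windows of 2 genes, ACTA1 and LDB3, where the 2 overlapping LDB3 windows hold the same site) and in 1.30% of all 34796 promoters, the MEF2 site in 13.8% and 3.01%, the TATA box in 31.03% and 11.6%, and the E-box in 75.9% and 68.7%. A match describes letters only.

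Levels are normalised read counts in CPM, the counts of a gene per 1000000 counts of the library after scaling by TMM, given for tumours 1, 2 and 3 of a group in that order. Fold changes are log2, shVCAN over shGFP, with standard error (SE), from the quasi-likelihood test of edgeR. Its p-values are adjusted over all 16254 genes that passed the low-count filter, and a gene is said to fall or rise at an adjusted p under 0.05. Libraries held 11253058 to 13327617 counts. The 31 genes together had 6336 to 9031 counts per tumour, and ACTA1 and TNNT1 held 28.6% and 28.0% of their summed level. VCAN was lower in every shVCAN tumour (3.66 ± 1.19 CPM, SD, n = 3) than in any shGFP tumour (10.6 ± 0.809 CPM), with a log2 fold change of −1.535 (SE 0.207, edgeR adjusted p = 4.59e-07). The labels number the tumours but do not say that same-numbered ones are related. The p-values set the difference between groups against the spread between the 3 libraries of a group. Variation between hairpin sequences, whose number is not given, was not assessed.

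**Figure D1:**
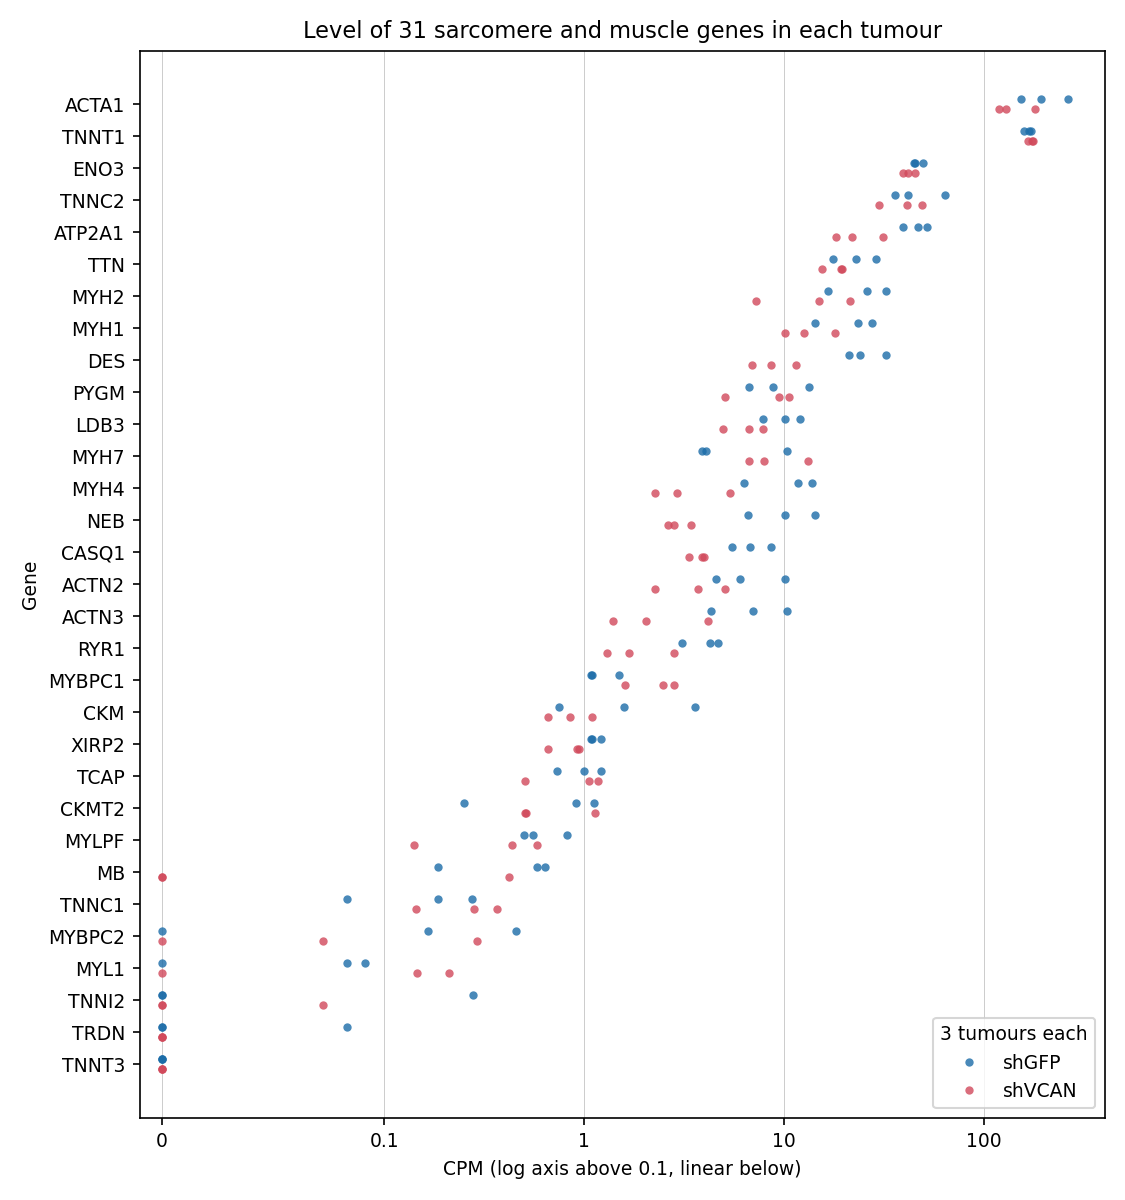
CPM of the 31 genes (rows) in each of 6 tumours (points), on an axis that is logarithmic above 0.1 CPM and linear below. ACTA1 and TNNT1 lie above 100 CPM in every tumour, while MYL1, TNNI2, TRDN and TNNT3 lie at or near 0. The points of TNNT1 almost coincide, and those of NEB, MYH4 and DES are separate by group.

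Of the 31 genes, 13 fell in shVCAN, none rose, 10 were tested and not called, and 8 had too few counts to be tested. Across all genes tested, 40.3% were called, 21.1% lower and 19.2% higher, so the 13 falls among 23 tested (56.5%) lay above the background share and the absence of rises below it. The median log2 fold change of the 23 was −0.62, against 0.0014 for all tested genes. These are descriptions of a list chosen with results of these data known, and no test was made of the list. In bulk tissue, fewer cells of a type and less RNA per cell cannot be told apart. The summed level was 554, 667 and 825 CPM in shGFP and 494, 611 and 462 CPM in shVCAN, so the groups overlapped in the sum. Of the 13 falls, 6 (NEB, MYH4, DES, ACTN3, ATP2A1 and CASQ1) were called in each of the 14 other settings tried, and 7 were lost in at least 1. The number of falls was 8 without shGFP tumour 3, 9 without shVCAN tumour 1 and 9 with the Wald test of DESeq2. MYH7, MYBPC1 or TNNT1 was called higher in some of those settings, up to 3 genes with scaling by library size only.

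**Figure D2:**
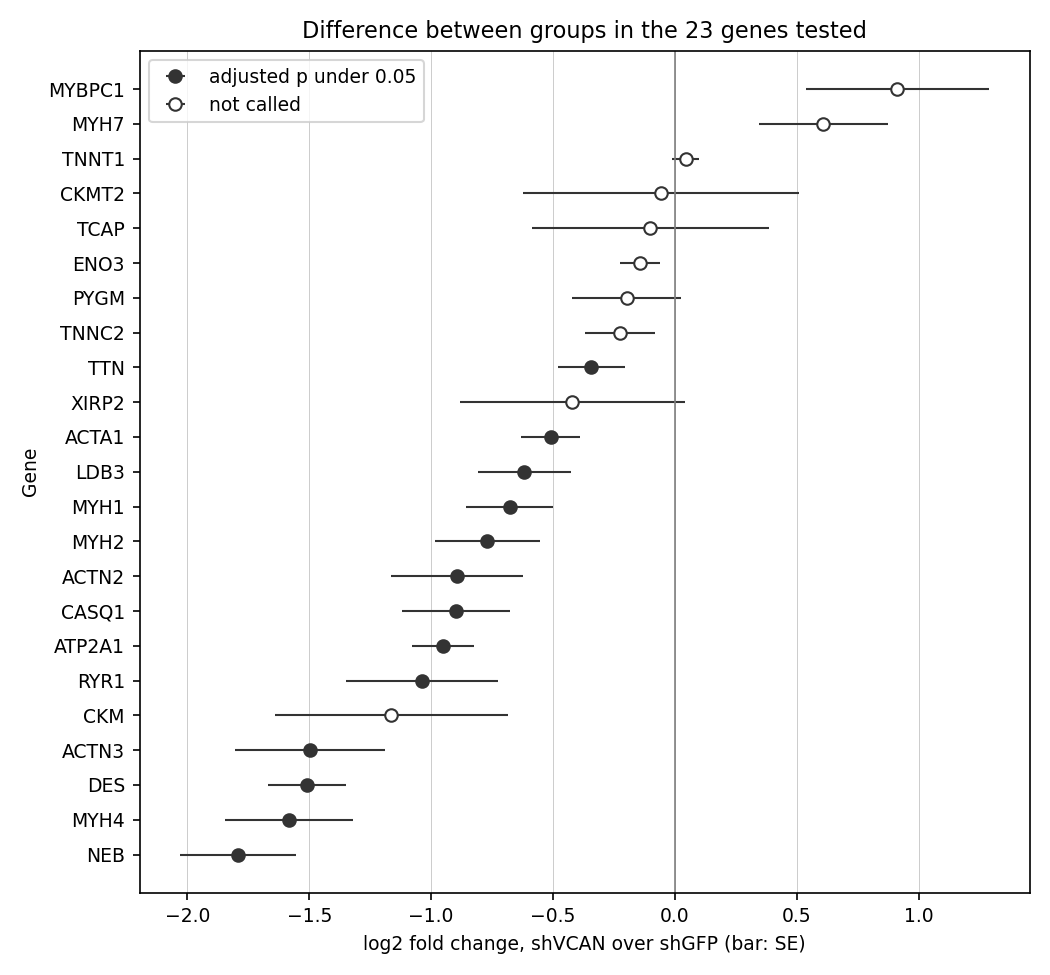
Log2 fold change (shVCAN over shGFP, bar: SE) of the 23 genes tested. Filled points are the 13 with an adjusted p under 0.05, all to the left of 0, and open points are the 10 not called. MYBPC1, MYH7 and TNNT1 lie to the right of 0.

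Of the 8 genes of the thin filament and Z-disc, 6 fell and 2 were not called. For this and the following sets of genes, the shares among all tested genes were 21.1% lower and 19.2% higher. NEB (chromosome 2, 151485336 to 151734487) encodes nebulin, the giant protein that runs along the thin filament. It was at 6.58, 10.03 and 14.2 CPM in shGFP and at 2.61, 2.82 and 3.43 CPM in shVCAN. The groups did not overlap, and the log2 fold change was −1.79 (SE 0.239, edgeR adjusted p = 3.84e-07). DES (chromosome 2, from 219418377) encodes desmin, the intermediate filament that ties neighbouring Z-discs together. It was at 21.0, 23.9 and 32.3 CPM in shGFP and at 8.56, 11.5 and 6.93 CPM in shVCAN. Every shVCAN tumour was below every shGFP tumour (log2 fold change −1.51, SE 0.160, edgeR adjusted p = 5.62e-09). ACTN3, the α-actinin of fast fibres that crosslinks actin at the Z-disc, was at 4.33, 6.97 and 10.3 CPM and at 2.03, 4.16 and 1.39 CPM. Its highest shVCAN tumour lay just below its lowest shGFP tumour (log2 fold change −1.496, SE 0.307, edgeR adjusted p = 0.000214).

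ACTN2, the α-actinin of all muscle fibres, was at 4.58, 6.04 and 10.05 CPM in shGFP and at 2.25, 5.08 and 3.72 CPM in shVCAN. Its groups overlapped, through shVCAN tumour 2, and the fall (log2 fold change −0.89, SE 0.271, edgeR adjusted p = 0.00874) was lost without shGFP tumour 3 (edgeR adjusted p = 0.171) and without shVCAN tumour 1 (0.0752). ACTA1, skeletal α-actin (chromosome 1, 229431245 to 229434098), had the highest mean level of the 31. It was at 152, 192 and 263 CPM in shGFP and at 128, 179 and 119 CPM in shVCAN. Tumour 2 of shVCAN lay above tumour 1 of shGFP. The log2 fold change of −0.51 (SE 0.121, edgeR adjusted p = 0.00103) was not called by the Wald test of DESeq2 (adjusted p = 0.18, log2 fold change −0.51), and was −0.27 without shGFP tumour 3 (edgeR adjusted p = 0.0466). LDB3, a Z-disc adaptor protein also called ZASP, was at 7.83, 10.1 and 12.1 CPM and at 6.68, 7.83 and 4.96 CPM, with shVCAN tumour 2 level with shGFP tumour 1 (log2 fold change −0.62, SE 0.191, edgeR adjusted p = 0.0101). That call was lost without shGFP tumour 3 (edgeR adjusted p = 0.09), without shVCAN tumour 3 (0.0782) and with library size only (0.0558). XIRP2, an actin-binding repeat protein, and TCAP, the cap of titin at the Z-disc, had 7 to 16 counts in each tumour and were not called (edgeR adjusted p = 0.502 and 0.891).

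Of the 9 genes of the thick filament and titin, 4 fell, 2 were not called and 3 were not tested. The falls were in the 3 fast myosin heavy chains and titin. MYH4, the chain of the fastest fibres in rodents, was at 6.33, 13.7 and 11.8 CPM in shGFP and at 2.25, 5.36 and 2.92 CPM in shVCAN. Its groups did not overlap (log2 fold change −1.58, SE 0.260, edgeR adjusted p = 1.13e-05). MYH1, the chain of fast IIx fibres, was at 14.2, 23.5 and 27.5 CPM and at 10.1, 17.9 and 12.6 CPM (log2 fold change −0.68, SE 0.179, edgeR adjusted p = 0.00288). MYH2, the chain of fast IIa fibres, was at 16.5, 26.0 and 32.1 CPM and at 7.26, 21.3 and 15.0 CPM (log2 fold change −0.77, SE 0.215, edgeR adjusted p = 0.00467). In both, shVCAN tumour 2 lay above shGFP tumour 1, and neither was called without shGFP tumour 3 (log2 fold changes −0.47 and −0.54, edgeR adjusted p = 0.052 and 0.0658). Nor was either called with the Wald test of DESeq2 (adjusted p = 0.137 and 0.238), where the log2 fold changes were −0.68 and −0.78. MYH2 was also not called without shVCAN tumour 1 (log2 fold change −0.45, edgeR adjusted p = 0.0588).

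MYH7, the slow chain that the heart also uses, was at 4.08, 3.90 and 10.3 CPM in shGFP and at 6.68, 13.1 and 7.95 CPM in shVCAN. The log2 fold change was 0.61 (SE 0.264) and was not called (edgeR adjusted p = 0.0657). Leaving out shGFP tumour 3, whose level was like those of shVCAN, brought it to 1.22 (edgeR adjusted p = 0.000293). It was also called higher without shVCAN tumour 1 and in 4 other settings. Whether MYH7 and the fast chains differed in their response was not tested. Titin, the spring between Z-disc and thick filament (TTN), was at 17.5, 22.9 and 28.7 CPM and at 19.3, 19.5 and 15.5 CPM. Its fall was small (log2 fold change −0.34, SE 0.138, edgeR adjusted p = 0.0476) and lost in 10 of 14 other settings, with −0.15 without shGFP tumour 3 (edgeR adjusted p = 0.452). The annotated exons of TTN overlap those of other genes over 15.6% of their length. MYBPC1, slow myosin-binding protein C, was at 1.08, 1.49 and 1.10 CPM in shGFP and at 2.47, 2.82 and 1.61 CPM in shVCAN. It was the single gene of the 31 whose shVCAN tumours all lay above the shGFP tumours (23.9% of all tested genes did so), and it was not called (log2 fold change 0.91, SE 0.376, edgeR adjusted p = 0.0533). It was called higher in 4 of 14 other settings: with upper quartile factors (0.95, edgeR adjusted p = 0.0435), library size only (1.08, 0.0205) or the filter of 1 CPM in 3 samples (0.92, 0.0467), and without shVCAN tumour 3 (1.11, 0.0377).

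Of the 5 troponin genes, 2 were tested and neither was called, and the levels of partner subunits lay far apart. TNNT1 (chromosome 19, from 55132794), slow troponin T, which holds the troponin complex on tropomyosin, was at 158, 168 and 172 CPM in shGFP and at 174, 173 and 166 CPM in shVCAN. The groups overlapped almost wholly, and the 95% interval of the log2 fold change of 0.04 ran from −0.064 to 0.15 (edgeR adjusted p = 0.569). With library size only as the scaling it was called higher, at 0.21 (edgeR adjusted p = 0.00466), where the median of all tested genes moved to 0.168. TNNC2, fast troponin C, the calcium sensor, was at 35.6, 41.3 and 63.5 CPM and at 40.9, 49.0 and 29.9 CPM. It was not called (log2 fold change −0.23, SE 0.143, edgeR adjusted p = 0.22), and its tumours spread 1.78-fold within shGFP. It was called lower without shGFP tumour 1 (−0.39, edgeR adjusted p = 0.0351) or shVCAN tumour 2 (−0.40, 0.0142), and was 0.06 without shGFP tumour 3. Per kilobase of annotated exon, TNNC2 was at 53.4 CPM in shGFP, while its partners in the fast complex were at 0.0859 CPM (TNNI2, the inhibitory subunit) and listed at 0 (TNNT3). In the same units, TNNT1 was at 76.5 CPM and its partner TNNC1, slow troponin C, at 0.155 CPM. Both troponin complexes therefore had a listed subunit at a high level and another with 5 counts or fewer in every tumour.

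All 3 tested genes of calcium release and uptake fell, with groups that did not overlap. Across all tested genes, 21.1% fell and 24.8% had every shVCAN tumour below every shGFP tumour. ATP2A1, the calcium pump SERCA1 of fast fibres, was at 39.3, 46.4 and 51.9 CPM in shGFP and at 21.7, 31.05 and 18.2 CPM in shVCAN. The groups were separate (log2 fold change −0.95, SE 0.127, edgeR adjusted p = 4.16e-07). RYR1, the calcium release channel of the store, was at 3.08, 4.27 and 4.66 CPM and at 1.31, 2.82 and 1.68 CPM (log2 fold change −1.04, SE 0.312, edgeR adjusted p = 0.00831). That call was lost without shVCAN tumour 1 (adjusted p = 0.0565). CASQ1, calsequestrin, which buffers calcium in the store, was at 5.50, 6.78 and 8.59 CPM and at 3.34, 3.95 and 3.87 CPM, again with no overlap (log2 fold change −0.90, SE 0.221, edgeR adjusted p = 0.00152). TRDN, triadin, which links CASQ1 to RYR1, had 1 count in 1 shGFP tumour and 0 in the other 5.

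Of the 5 genes of energy supply and oxygen storage, 4 were tested and none was called. ENO3, muscle enolase of glycolysis, was at 45.0, 44.7 and 49.2 CPM in shGFP and at 41.4, 45.2 and 39.2 CPM in shVCAN (log2 fold change −0.14, SE 0.0826, edgeR adjusted p = 0.172). PYGM, muscle glycogen phosphorylase, was at 6.66, 8.83 and 13.3 CPM and at 9.44, 10.5 and 5.04 CPM, overlapping throughout (edgeR adjusted p = 0.512). CKM, muscle creatine kinase, was at 0.749, 1.58 and 3.56 CPM and at 1.09, 0.847 and 0.657 CPM. Its log2 fold change of −1.16 (SE 0.479) was not called (edgeR adjusted p = 0.0525), and it was −0.41 without shGFP tumour 3 and −1.56 without shGFP tumour 1 (edgeR adjusted p = 0.0108). CKM was also called lower with no filter (edgeR adjusted p = 0.0446) and with the filter of 1 CPM in 3 samples (0.0482). CKMT2, the mitochondrial creatine kinase, had 3 to 16 counts per tumour, and myoglobin (MB) 0 to 7. Per kilobase of exon in shGFP, CKM was at 1.185 CPM, against 135 CPM for ACTA1 and 10.8 CPM for ENO3.

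Levels per kilobase set the 31 genes in an order that both groups shared at the top. ACTA1 (135 and 94.9 CPM per kilobase in shGFP and shVCAN), TNNT1 (76.5 and 78.8) and TNNC2 (53.4 and 45.6) came first. ENO3 (10.8 and 9.76), DES (10.4 and 3.65) and ATP2A1 (10.00 and 5.16) followed, and these 3 did not differ from each other beyond their spread in shGFP. The fast myosin chains MYH2 and MYH1 stood at 3.76 and 3.61 CPM per kilobase in shGFP, whereas the light chains that bind them stood at 0.56 (MYLPF) and 0.0434 (MYL1). Exonic lengths merge all annotated isoforms, which lowers the value of a gene whose exons are not all used. By fibre type, 6 of 12 fast genes fell, 1 was not called and 5 were not tested. None of the 3 genes assigned to slow fibres (MYH7, TNNT1 and TNNC1) fell: 2 were not called and 1 was not tested. The remaining 16 genes, used in both fibre types or not assigned to 1, had 7 falls. MYBPC1, though named for slow muscle, was counted among these 16. Across all tested genes, 21.1% fell. Only 2 slow genes were tested, and whether the fibre types differed was not tested.

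The spread between tumours of the same group was itself shared by many of the genes. In shGFP, tumour 3 was the highest for 18 of the 23 tested genes, against 33.3% of all genes tested, and tumour 1 was the lowest for 20, against 33% of all. In shVCAN, tumour 2 was the highest for 18, against 35.6% of all. Both tumours led their groups for 15 of 23 genes, where 12.8% of all tested genes had that order. Among the 13 genes that fell, 11 had it, and NEB and MYH4 were the exceptions. The median of the 13 in shGFP tumour 1 lay 0.41 below the log2 of its group mean, and that in shGFP tumour 3 lay 0.33 above. In shVCAN tumour 2 the median lay 0.39 above. The 3 clustered myosins summed to 37.1, 63.3 and 71.4 CPM in shGFP and to 19.6, 44.6 and 30.4 CPM in shVCAN.

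**Figure D3:**
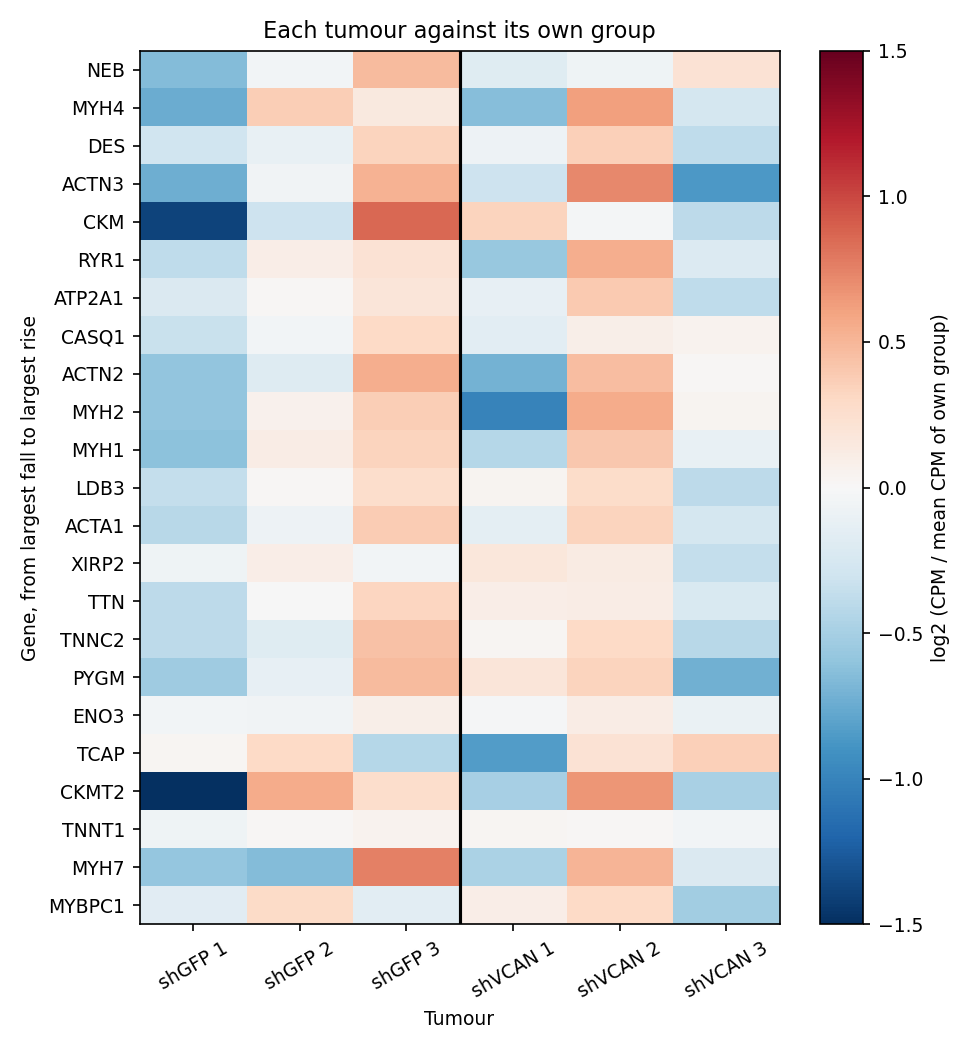
Log2 of the CPM of each tested gene (23 rows) in each tumour (columns) over the mean CPM of the tumour's own group. Red is above and blue below the mean. In shGFP most genes are blue in tumour 1 and red in tumour 3, in shVCAN most are red in tumour 2, and TNNT1 and ENO3 are nearly white throughout.

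The genes differed in how far they took part in this spread. The biological coefficient of variation (BCV), which is the spread between tumours beyond counting error as edgeR estimates it, was above the trend for the gene's abundance in 17 of the 23 genes, against 40.1% of all tested genes. It was 10.4% in ACTA1 where the trend was 4.88%, 17.4% in MYH2 where the trend was 8.17%, and 11.6% in TNNC2 where the trend was 6.14%. TNNT1 and ENO3 stayed at the trend, with 4.61% against 4.89% and 5.93% against 6.10%. TNNT1 and ACTA1 had similar levels, yet the highest tumour of shGFP was 1.73-fold above the lowest in ACTA1 and 1.09-fold in TNNT1. The groups overlapped in 6 of the 13 genes that fell (ACTA1, ACTN2, LDB3, MYH1, MYH2 and TTN). The groups were apart, with shVCAN lower, in 8 of the 23 tested genes, where the share among all tested genes was 24.8%. They were NEB, DES, ACTN3, MYH4, ATP2A1, RYR1, CASQ1 and the uncalled XIRP2.

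**Figure D4:**
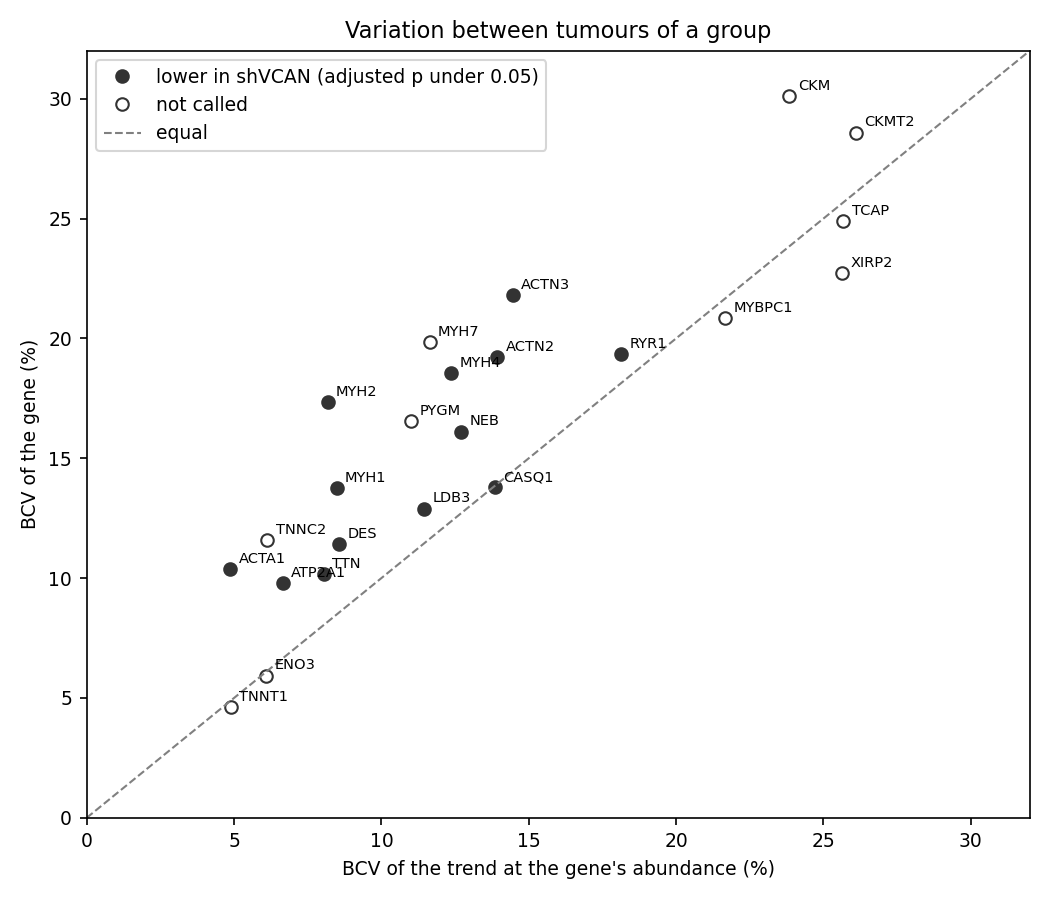
BCV of each tested gene (vertical) against the BCV of edgeR's trend at its abundance (horizontal), both in percent. The dashed line marks equal values, filled points are genes that fell and open points genes not called. ACTA1, MYH2 and TNNC2 lie well above the line, and TNNT1 and ENO3 lie on it.

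Other muscle genes gave a mixed picture. For the lists here and below, the shares among all tested genes were 21.1% lower and 19.2% higher, and no list was tested as a set. Of 58 further sarcomere genes, 4 rose, 5 fell, 22 were not called and 27 were not tested, with a median log2 fold change of −0.05 over those tested. MYH13, the extraocular chain of the same chromosome 17 cluster, fell from 9.02 ± 0.813 to 3.57 ± 0.413 CPM, and NRAP, an anchoring protein of nascent myofibrils, from 2.17 ± 0.928 to 0.578 ± 0.266 CPM (SD, n = 3 here and below). TPM2, a tropomyosin, fell from 130.9 ± 23.3 to 101.5 ± 17.4 CPM with overlapping groups, and the light chain MYL6B, which is not confined to muscle, rose from 84.1 ± 1.09 to 112.9 ± 2.44 CPM. Of 25 further genes of excitation and calcium handling, 2 rose, 3 fell, 11 were not called and 9 were not tested. ATP2A2, the pump SERCA2 of slow muscle and most other tissues, fell from 303.5 ± 7.44 to 201.5 ± 9.07 CPM, and junctophilin 2 (JPH2) from 9.93 ± 0.929 to 4.23 ± 1.11 CPM. ASPH, whose locus also encodes the junction protein junctin, had a log2 fold change of −0.26. PVALB, parvalbumin of fast fibres, was listed at 0.

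Of 22 genes of the sarcolemma and neuromuscular junction, 2 rose, 5 fell, 7 were not called and 8 were not tested. AGRN, agrin, fell from 782.5 ± 8.48 to 491.1 ± 58.5 CPM, and the acetylcholine receptor subunit CHRNA1 from 57.5 ± 6.996 to 29.1 ± 0.247 CPM. The laminin receptor subunit ITGA7 rose from 26.8 ± 0.784 to 57.1 ± 9.19 CPM. Of 24 genes of muscle energy metabolism, 2 rose, 3 fell, 12 were not called and 7 were not tested. EEF1A2, a translation elongation factor of muscle and neurons, had a log2 fold change of 0.45. GYS1 (glycogen synthase), PHKB (a phosphorylase kinase subunit) and PDK4 (a kinase that restrains pyruvate oxidation) had −0.46, −0.41 and −0.83. Of 20 muscle regulators, 5 fell, 5 were not called and 10 were not tested. The 4 with the smallest p were MEF2D, SRF, SIX4 and MEF2A (log2 fold changes −0.73, −0.63, −0.38 and −0.33), transcription factors that are not restricted to muscle. Within shGFP the 20 regulators summed to 421.7, 422.9 and 428.3 CPM, without the spread of the sarcomere genes. SRF, MEF2D, MEF2A and SIX4 alone had means of 93.8, 74.5, 72.1 and 61.6 CPM there. The sum therefore says little about the regulators with few counts.

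Of 25 relatives of the listed genes that serve outside muscle, 6 rose, 5 fell, 13 were not called and 1 (ACTN4) was not tested. LASP1, a nebulin repeat protein, fell from 354.5 ± 12.7 to 184.0 ± 4.88 CPM, the calcium release channel ITPR3 from 207.7 ± 3.61 to 113.0 ± 15.6 CPM and cytoglobin (CYGB) from 33.6 ± 2.54 to 12.2 ± 1.60 CPM. The brain-type creatine kinase CKB rose from 30.98 ± 2.61 to 55.2 ± 2.16 CPM. Of 11 smooth muscle markers, 4 fell, 5 were not called and 2 were not tested. The falls were in SYNM, ACTG2, SMTN and CALD1 (log2 fold changes −0.63, −1.84, −0.27 and −0.27), and MYH11 was listed at 0. Of 10 heart markers, 1 was tested and not called, and NPPB and MYL7 were listed at 0.

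Some markers of other cell types also differed between the groups, as did 40.3% of all tested genes. Their part in the falls of the sarcomere and muscle genes was not tested. Of 10 fibroblast and pericyte markers, 5 fell, 1 rose, 1 was not called and 3 were not tested, and THY1 was listed at 0. Their sum was 854.3 to 953.6 CPM in shGFP and 412.1 to 511.8 CPM in shVCAN, with falls in COL1A2, COL3A1, COL1A1 and PDGFRA (log2 fold changes −2.37, −1.44, −1.04 and −0.34). Within shGFP that sum was lowest in tumour 3, the tumour with the highest sum of the sarcomere and muscle genes. Within shVCAN both sums were highest in tumour 2. COL1A1 made up most of the marker sum, with 661, 603 and 591 CPM in shGFP tumours 1, 2 and 3. PDGFRA was also lowest in shGFP tumour 3, but COL1A2 and COL3A1 were lowest in tumour 2. The order of the sum is therefore mainly that of COL1A1. Of 10 endothelial markers, 5 fell, 1 was not called and 4 were not tested, with sums of 172.7 to 180.7 and 111.8 to 125.8 CPM. KDR, CDH5, TIE1 and PECAM1 had log2 fold changes of −0.92, −2.71, −0.39 and −0.47. Of 7 Schwann cell and nerve markers, 3 fell (among them MBP and NCAM1, log2 fold changes −0.58 and −0.34), S100B rose by 2.29, 2 were not called and 1 was not tested, with sums of 221.1 to 227.5 and 173.6 to 195.5 CPM.

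Markers of the remaining cell types were few or moved in both directions. Of 10 adipocyte markers, FABP4 rose and PLIN4 fell (log2 fold changes 2.02 and −0.96), 2 were not called and 6 were not tested. Their sums were 21.0 to 28.6 and 30.3 to 33.3 CPM, and ADIPOQ and LEP were listed at 0. Of 10 keratinocyte markers, KRT10 rose by 0.44 on the log2 scale and 9 were not tested, with sums of 53.2 to 57.4 and 69.6 to 75.9 CPM, and KRT1 and DSG1 were listed at 0. Of 10 macrophage markers, CD14 fell (log2 fold change −1.51), 4 were not called and 5 were not tested. Their sums were 6.91 to 10.03 and 5.30 to 7.22 CPM, and C1QA, C1QB and C1QC were listed at 0. None of 8 erythroid markers had enough counts to be tested, and AHSP and ALAS2 were among those listed at 0.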

How the data were processed

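The authors deposited unnormalised read counts, whole numbers for each Ensembl gene, for 3 shGFP and 3 shVCAN tumours. Paired reads of 150 bases were sequenced, per the labels' protocols. Trim Galore, STAR, DESeq2 and hg38 appear in the submitters' processing notes without role or version. Not given in the sources used here were the counting program, its strand setting and any removal of mouse reads. Reads from antisense or overlapping genes can therefore not be told apart.

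Of 67071 rows, 45 second copies of pseudoautosomal genes (0 counts) were left out. Symbols came from a table of gene names and GENCODE 29 (60659 of 67026 genes), and MYLPF, now MYL11, was matched by its GENCODE 29 name. Groups came from the sample titles. Testing used edgeR 4.0.16 in R 4.3.3 (quasi-likelihood, TMM, filterByExpr, group as the only term, Benjamini-Hochberg threshold 0.05). It was checked on simulated counts with the same dispersion for every gene and 200 changed genes. That check does not cover the wider, shared spread of many members. The SE is the fold change divided by the root of F. CPM values use TMM library sizes. BCV is edgeR's shrunken gene-wise estimate. Alternatives were other scalings, filters and thresholds, limma-voom (limma 3.58.1), DESeq2 1.42.0, a replicate block and leaving out each tumour.

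The members and the 15 other lists were chosen with earlier results of these data known. Named are all members, VCAN and, per other list, up to 4 called genes with the smallest p; a few markers at or near 0 were named after their values were seen. Some genes that this rule names are not reported here. Shared words were exact matches of 100 bases on either strand among GENCODE 29 transcripts.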

Additional observations from a re-analysis of the deposited data

How the results depend on the processing

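No member that fell changed direction in any of 14 alternatives. Each of the 13 that fell was tested in all 14, and 22 of these pairs of member and alternative lost the call. Members called lower ranged from 8 to 15 when each tumour was left out in turn, and members called higher from 0 to 1. Members called higher numbered 1 with upper quartile factors, with no filter, with 1 CPM in 3 samples, with limma-voom and with the replicate block, and 3 with library size only. In that last setting the median of all tested genes was 0.168, and 5228 genes were higher and 1890 lower in place of 3120 and 3425. The summed level of the members in shGFP and shVCAN was 516.05 and 351.5 CPM without TNNT1, the member with the most counts. Leaving out 1 tumour moved the sum over 610.7 to 745.9 CPM in shGFP and 478.2 to 552.6 CPM in shVCAN.

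Members that were not called changed sign in 13 pairs. With library size only, CKMT2, ENO3 and TCAP were at 0.105, 0.0233 and 0.0622, and with limma-voom CKMT2 was at 0.071. Without shGFP tumour 2, CKMT2 and TCAP were at 0.336 and 0.0803. Without shGFP tumour 3, CKMT2, PYGM and TNNC2 were at 0.108, 0.116 and 0.06. Without shVCAN tumour 1, CKMT2 and TCAP were at 0.132 and 0.183. Without shVCAN tumour 3, CKMT2 and PYGM were at 0.129 and 0.0595. Over the single omissions the most negative values were -0.546 for CKMT2, -0.403 for PYGM, -0.315 for TCAP and -0.399 for TNNC2. The causes were not tested. The labels give same-numbered tumours only a number in common. Over all tested genes, the correlations of their deviations were 0.0176, 0.0157 and -0.0271, which cannot exclude a link in some genes. With the replicate block 12 members were called lower in place of 13, and TTN was lost (edgeR adjusted p = 0.0628). The edgeR adjusted p was smaller for some members (MYH2, 3.74e-05 against 0.00467) and larger for others (DES, 2.13e-08 against 5.62e-09). The 8 untested members were below about 10 counts in every tumour and were left out by the low-count filter. With no filter, none of those that could be tested was called (edgeR adjusted p of 0.335 or more). Whether a difference could be detected at such counts was not tested.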
